A study of Mus musculus with 6 samples.

Results

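The genes described here are 10 genes typical of the choroid plexus epithelium, the cell layer that lines the ventricles at the choroid plexus: Ttr, Enpp2, Sostdc1, Kl, Aqp1, Clic6, Kcne2, Folr1, Prlr and Otx2. They were chosen by symbol in GENCODE M21, and each symbol matched 1 of the 55450 genes in the count tables. They were measured by long RNA sequencing of whole mouse brain in 3 TRMT1L KO and 3 WT libraries, described as biological triplicates. The labels give neither age, sex, strain, the allele that removes TRMT1L, nor how the animals relate, so p-values measure the spread between these libraries. TRMT1L is related to TRMT1, a tRNA methyltransferase.

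The choroid plexus makes cerebrospinal fluid. Its epithelium sits on leaky capillaries, moves ions and water through polarised channels and transporters, carries folate and hormones from blood to fluid, and secretes carrier proteins and enzymes into the ventricles. Transthyretin, the product of Ttr, is its best known secretion and is used to recognise the tissue. In RNA from whole brain the epithelium is a small part of the sample, so the level of its genes varies with how much plexus the tissue held. Fewer cells and less RNA per cell cannot be told apart in such libraries.

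Counts in genes ranged from 31201119 to 36145961 per library. Trmt1l had between 1034 and 1279 counts in the WT libraries and between 93 and 106 in the KO libraries, so every library stood on the side of its label. CPM here means counts brought to a common library total with TMM factors, and the level per length is given as CPM per kilobase of annotated exon.

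Ttr and Enpp2 stood far above the other members. The level per length of Ttr was 275 ± 38.2 CPM per kilobase (SD, n = 6 libraries), rank 34 of the 21237 genes tested. Enpp2, which encodes autotaxin, an enzyme that makes lysophosphatidic acid, followed at 86.3 ± 6.86 CPM per kilobase and rank 208. Clic6 (3.71 ± 0.447) and Kl (2.97 ± 0.299) came next on that scale. Aqp1 (1.73 ± 0.319), Sostdc1 (1.66 ± 0.154), Folr1 (1.49 ± 0.131), Otx2 (1.33 ± 0.116), Kcne2 (1.19 ± 0.229) and Prlr (1.01 ± 0.114 CPM per kilobase) closed the order. From Aqp1 downwards, each gene's range over the 6 libraries overlapped that of its neighbour in the order, as did Clic6 with Kl, so these places in the order are not resolved. All 10 genes had counts in every library and passed the filter on low counts. The lowest was Kcne2, with 46 counts in WT library 2.

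The sequence before the start site is shown for Aqp1, Kl and Kcne2, the 3 members in the RefSeq promoter table (GRCm38.p6) that hold a GC box. Among the members in that table they also have the largest log2 fold changes below. The table has no entry for Ttr, Enpp2, Sostdc1, Clic6 and Folr1. A link between the motif and the fold changes was not tested. Capitals mark the GC box GGGCGG or its reverse complement, the motif read by Sp1-type factors. Each line holds the 250 bases before a RefSeq start on the plus strand, at chr6:55336049-55336298, chr5:150952357-150952606 and chr16:92292139-92292388, and lies outside its own annotated gene. A further GC box of Kl lies after the start.
Aqp1: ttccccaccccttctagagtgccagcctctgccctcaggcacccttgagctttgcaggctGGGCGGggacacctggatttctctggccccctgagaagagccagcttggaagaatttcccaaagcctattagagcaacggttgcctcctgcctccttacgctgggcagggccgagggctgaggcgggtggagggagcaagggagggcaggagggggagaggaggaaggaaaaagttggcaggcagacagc
Kl: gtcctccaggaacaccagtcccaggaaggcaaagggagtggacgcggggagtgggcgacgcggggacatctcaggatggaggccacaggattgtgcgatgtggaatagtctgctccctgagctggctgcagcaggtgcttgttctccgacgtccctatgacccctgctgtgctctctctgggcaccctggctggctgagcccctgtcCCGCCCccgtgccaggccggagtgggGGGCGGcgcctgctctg
Kcne2: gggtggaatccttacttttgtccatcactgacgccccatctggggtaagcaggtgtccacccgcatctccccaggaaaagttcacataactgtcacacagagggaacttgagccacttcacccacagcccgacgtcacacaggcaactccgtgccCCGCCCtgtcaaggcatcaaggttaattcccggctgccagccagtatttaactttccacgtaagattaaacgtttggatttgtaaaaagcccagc

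In all, 5 of the 10 members matched that table, with 11 windows of 300 bases that reach from 250 before to 50 after a start. The GC box lay in 3 of these windows, those shown for Aqp1, Kl and Kcne2, against 35.7% of all 32851 windows, searched on both strands. TAATCC, the motif bound by OTX homeodomain proteins, lay in 1 window, of Otx2 itself, against 7.06% of all windows. It is the stretch at chr14:48665305-48665330 on the minus strand, with the reverse complement of the motif in capitals, 211 bases before a RefSeq start inside the gene.
Otx2: tgtgcccctcGGATTAtctcgttagt
The forkhead motif TGTTTAC lay in 1 window of Prlr (3.65% of all windows) and TATAAA in 1 window of Otx2 (13.6%). These are matches of letters and say nothing of binding.

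The members lie on 8 chromosomes of GRCm38. Ttr (ENSMUSG00000061808.4) occupies 20665280 to 20674321 of chromosome 18, plus strand. Sostdc1 (ENSMUSG00000036169.6) is on chromosome 12 from 36314139 to 36318452, Kl (ENSMUSG00000058488.7) on chromosome 5 from 150952607 to 150993817 and Aqp1 (ENSMUSG00000004655.5) on chromosome 6 from 55336432 to 55348555, all on the plus strand. Kcne2 (ENSMUSG00000039672.12, 92292389 to 92298129) and Clic6 (ENSMUSG00000022949.9, 92485736 to 92541243) are both on the plus strand of chromosome 16. Chromosome 15 holds Prlr (ENSMUSG00000005268.20, 10177238 to 10349180, plus strand) and Enpp2 (ENSMUSG00000022425.16, 54838901 to 54952892, minus strand). Folr1 (ENSMUSG00000001827.12) is on chromosome 7 from 101858331 to 101870788 and Otx2 (ENSMUSG00000021848.16) on chromosome 14 from 48657677 to 48673819, both on the minus strand. Counts cover the annotated exons. Prlr shares 203 exonic bases with Gm21973 and Otx2 168 with Gm49154 on the same strand, and reads there are left out by the counting. Enpp2 and Otx2 share 345 and 154 exonic bases with genes on the other strand, where strand keeps the reads apart.

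Ttr encodes transthyretin, which carries thyroxine and retinol-binding protein. In CPM, WT libraries 1, 2 and 3 held 317, 263 and 300.1, and the KO libraries, in the same order, 384, 372 and 320.3. Every KO library lay above every WT library, but KO library 3 exceeded WT library 1 by little. Group means were 293 ± 27.3 CPM for WT and 359 ± 34.0 CPM for KO (SD over 3 libraries each), a ratio of 1.22, or 0.29 on the log2 scale (SE 0.0757). The difference did not pass the quasi-likelihood test of edgeR, a model fitted across 21237 genes, at an adjusted p of 0.05 (unadjusted p = 0.00254, adjusted p = 0.576). DESeq2's Wald test gave an adjusted p of 0.0353. That fit called 26 genes, or 0.545% of the 4768 given an adjusted p-value. Without independent filtering DESeq2 gave 0.0851 and called 15 of 21236 genes (0.0706%). With no filter on low counts edgeR gave an adjusted p of 3.63e-07 and called 0.800% of 37245 genes.

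Sostdc1, a secreted antagonist of BMP and Wnt signals, also had every KO library above every WT library. Its counts were few, at 94, 88 and 94 in WT and 101, 112 and 116 in KO, or 2.75 ± 0.146 and 3.15 ± 0.217 CPM (SD over 3 libraries). The log2 fold change was 0.20 (SE 0.134, edgeR adjusted p = 0.745). Kl encodes klotho, a coreceptor for FGF23 that is also shed into the fluid. Its abundance was 24.7, 25.4 and 28.0 CPM in WT and 31.3, 30.7 and 26.3 CPM in KO. KO library 3 lay among the WT libraries, and the log2 fold change was 0.18 (SE 0.0788, unadjusted p = 0.0422, edgeR adjusted p = 0.622).

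Enpp2 did not share this pattern. It had 507, 492 and 502 CPM in WT and 551, 511.5 and 429 CPM in KO, so the KO libraries held both the highest and the lowest value. Mean abundance was 500.3 ± 7.46 CPM for WT and 497 ± 62.2 CPM for KO (SD over 3 libraries). Its log2 fold change was -0.0097 (SE 0.0723, edgeR adjusted p = 0.986). The coefficient of variation was 12.5% among the KO libraries and 1.49% among the WT libraries.

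The 3 genes of channels and water transport included the members with the largest differences. Aqp1, the water channel of the apical membrane, had 143, 123 and 130 counts in WT and 173, 203 and 161 in KO. That came to 3.93, 3.92 and 3.95 CPM in WT and 4.98, 6.03 and 4.45 CPM in KO, with no overlap between the groups. The ratio of means was 1.31 and the log2 fold change 0.39 (SE 0.134, unadjusted p = 0.0142, edgeR adjusted p = 0.579). The WT values varied by 0.357%, far less than the 8.02% that counting error alone gives at the mean count of Aqp1.

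Kcne2, the beta subunit of a potassium channel of this epithelium, had 76, 46 and 65 counts in WT and 80, 91 and 76 in KO, or 1.84 ± 0.331 and 2.37 ± 0.306 CPM (SD over 3 libraries). In CPM the groups did not overlap, though KO library 3 and WT library 1 each had 76 counts. The log2 fold change was 0.35 (SE 0.181, edgeR adjusted p = 0.652), and counting error at this depth is 11.8%. Clic6, of the chloride intracellular channel family, had 14.4, 11.8 and 14.5 CPM in WT and 15.7, 17.0 and 13.8 CPM in KO. Its groups overlapped through KO library 3, and its log2 fold change was 0.19 (SE 0.103, edgeR adjusted p = 0.675).

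Folr1 encodes the folate receptor that brings folate into the cerebrospinal fluid. It had 3.05, 3.41 and 3.16 CPM in WT and 3.86, 3.65 and 3.35 CPM in KO, with an overlap of WT library 2 and KO library 3. The log2 fold change was 0.17 (SE 0.128, edgeR adjusted p = 0.763). Prlr, the prolactin receptor, stood apart in that its highest value was a WT library. It had 13.9, 14.3 and 18.3 CPM in WT against 15.9, 16.7 and 14.2 CPM in KO, and its log2 fold change was 0.011 (SE 0.109, edgeR adjusted p = 0.988).

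Otx2, the homeodomain factor that the plexus needs to form and to persist, had 5.88, 5.23 and 5.23 CPM in WT and 5.81, 6.36 and 5.12 CPM in KO. The groups overlapped, and the log2 fold change was 0.079 (SE 0.119, edgeR adjusted p = 0.893). Otx2 is also made in the pineal gland. Of 4 pineal genes, Aanat had between 19 and 40 counts and Tph1 between 11 and 23, while Asmt and Crx had at most 4 in any library. Aanat and Tph1 had log2 fold changes of 0.33 (SE 0.321) and 0.38 (SE 0.330) with overlapping groups, and their part in the Otx2 values was not tested.

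**Figure D1:**
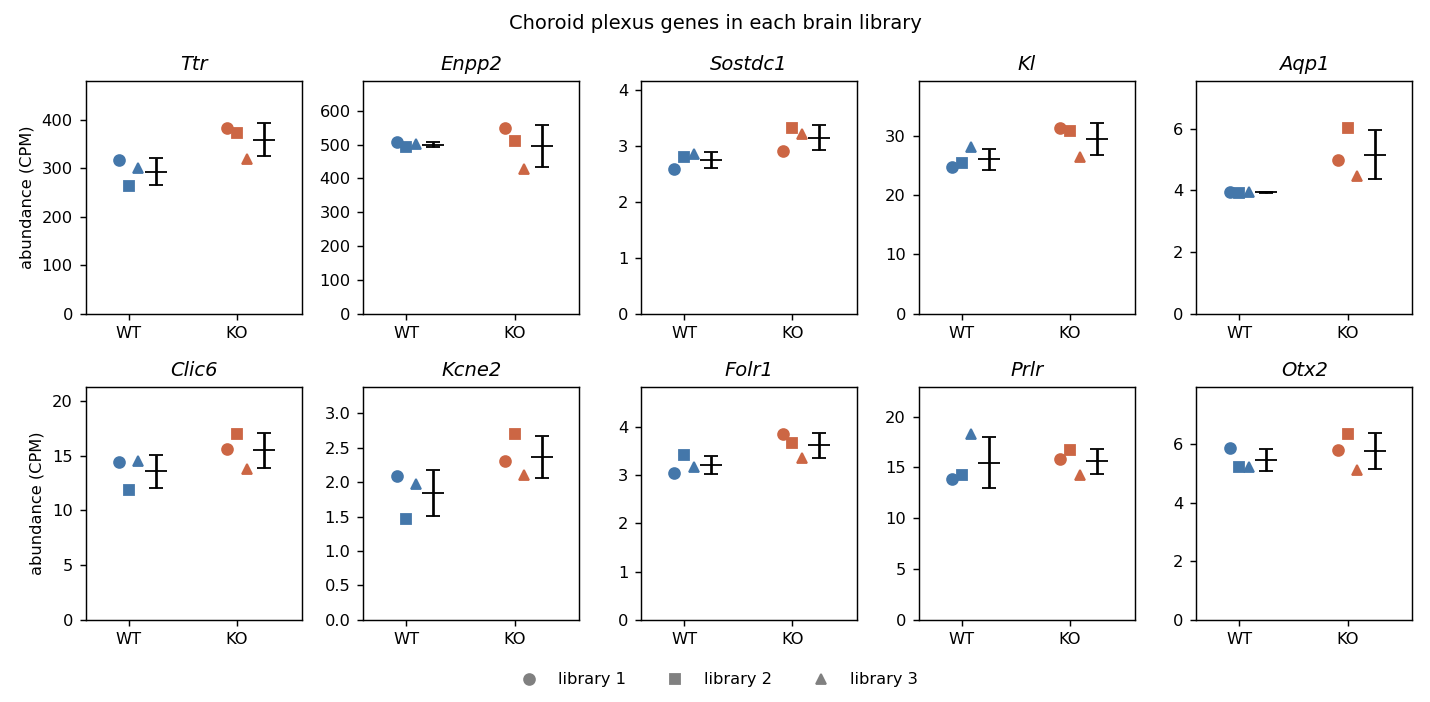
Abundance (CPM, y axis from 0) of the 10 genes in each WT (blue) and KO (orange) library, with the mean and SD of 3 libraries beside the points. All KO points lie above all WT points for Ttr, Sostdc1, Aqp1 and Kcne2, and KO library 3 (triangle) is the lowest KO library for every gene but Sostdc1.

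Of the 10 genes, edgeR called 0 after adjustment, against 0.00942% of all genes tested, and 0 with the replicate number as a block, against 0.0188%. Without adjustment 3 had a p-value under 0.05, Ttr, Kl and Aqp1, all higher in KO, against 4.54% of all genes tested in that direction and 7.92% in either. By limma-voom 0 passed, and by DESeq2 1 did, Ttr, as given above. DESeq2 gave no adjusted p-value to the 8 members other than Ttr and Enpp2. The log2 fold change was positive for 9 of 10 members, against 50.1% of all genes. For 4 members every KO library exceeded every WT library, against 7.46% of all genes, and the reverse held for 0 members, against 6.97%. The median log2 fold change was 0.18, beside 0.00013 over all genes tested. The members were measured in the same 6 libraries, so they are not separate observations of the genotypes.

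**Figure D2:**
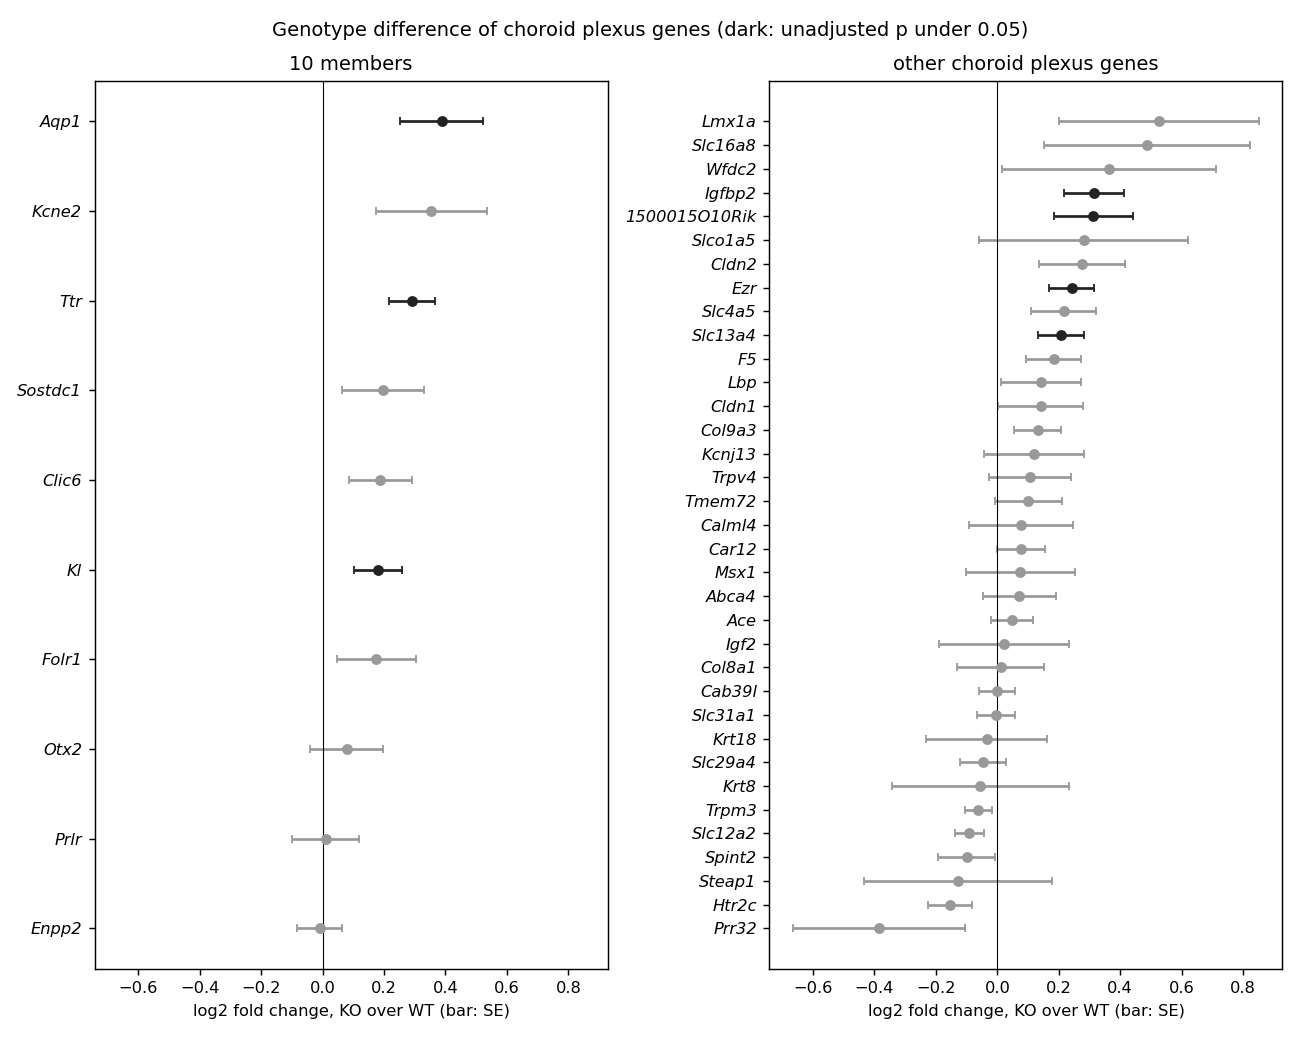
Log2 fold change of KO over WT (x axis, bars are SE) for the 10 genes (left) and other genes of the choroid plexus (right), dark where the unadjusted p-value was under 0.05. The members run from -0.0097 (Enpp2) to 0.39 (Aqp1), and none of the genes shown passed after adjustment in edgeR's test.

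KO libraries 1 and 2 held the highest levels of most members. As a share of the WT mean, the median over the 10 members stood at 101%, 96.8% and 103% for the WT libraries in order and at 118%, 119.6% and 103% for the KO libraries. KO library 3 thus stood at the level of WT library 3. KO library 2 had the highest value of 5 members (Sostdc1, Aqp1, Clic6, Kcne2 and Otx2) and KO library 1 that of 4 (Ttr, Enpp2, Kl and Folr1). The lowest value fell in WT library 1 for 4 members, in WT library 2 for 4 and in KO library 3 for 2, Enpp2 and Otx2.

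**Figure D3:**
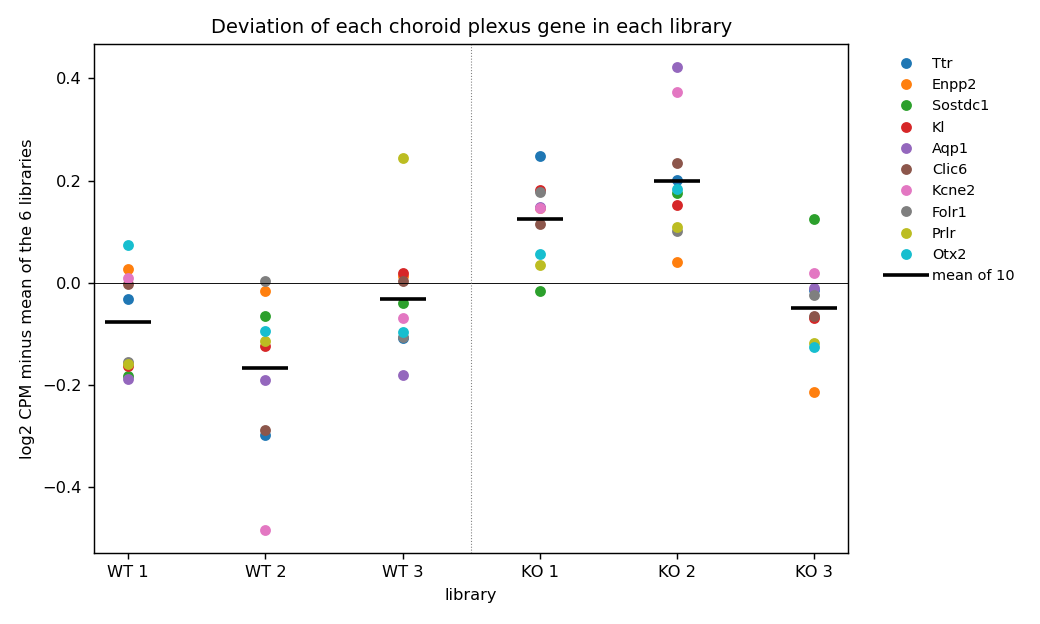
Deviation of log2 CPM of each gene from its mean over the 6 libraries (y axis), by library, with the black bar at the mean of the 10 genes. The bar stands at 0.12 and 0.20 in KO libraries 1 and 2 and at -0.049 in KO library 3, inside the WT range of -0.17 to -0.032.

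Ttr alone made up between 0.0265% and 0.0319% of gene counts in the WT libraries and between 0.0321% and 0.0385% in the KO libraries. Together the 10 genes summed to 894, 824 and 880.2 CPM in WT and 1018, 970.1 and 822 CPM in KO, so the sum overlapped between the groups, with a ratio of means of 1.08. Enpp2 was the largest term of that sum. Without Enpp2 the sums were 387, 332 and 378 CPM in WT and 467, 459 and 393 CPM in KO, which did not overlap, and the ratio was 1.20. Without Ttr they were 577, 560.4 and 580.2 CPM in WT and 633, 598 and 501 CPM in KO, which overlapped, and the ratio was 1.01. Without both they were 70.5, 68.3 and 78.0 CPM in WT and 82.7, 86.5 and 72.6 CPM in KO, with a ratio of 1.12. Ttr was between 3.85 and 4.49 times the sum of those 8 genes in WT and between 4.30 and 4.65 times in KO. Over all 6 libraries the highest Ttr value was 1.46 times the lowest.

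Enpp2 is also made by oligodendrocytes, and its values were set beside genes of that cell type. The summed abundance of 9 oligodendrocyte genes was 4665, 4324 and 4233 CPM in WT and 4359, 4002 and 3649 CPM in KO. KO library 3 was the lowest library for this sum and for Enpp2. The sum was highest in WT library 1, and Enpp2 was highest in KO library 1. Of these 9 genes 8 had a negative log2 fold change, against 49.9% of all genes, and 2 of them an unadjusted p-value under 0.05, against 3.38% of all genes lower in KO. In edgeR's test 0 passed after adjustment. Mbp, of compact myelin, had a log2 fold change of -0.10 (SE 0.0613), with an edgeR adjusted p-value of 0.712. The part of these genes in the Enpp2 values was not tested.

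**Figure D4:**
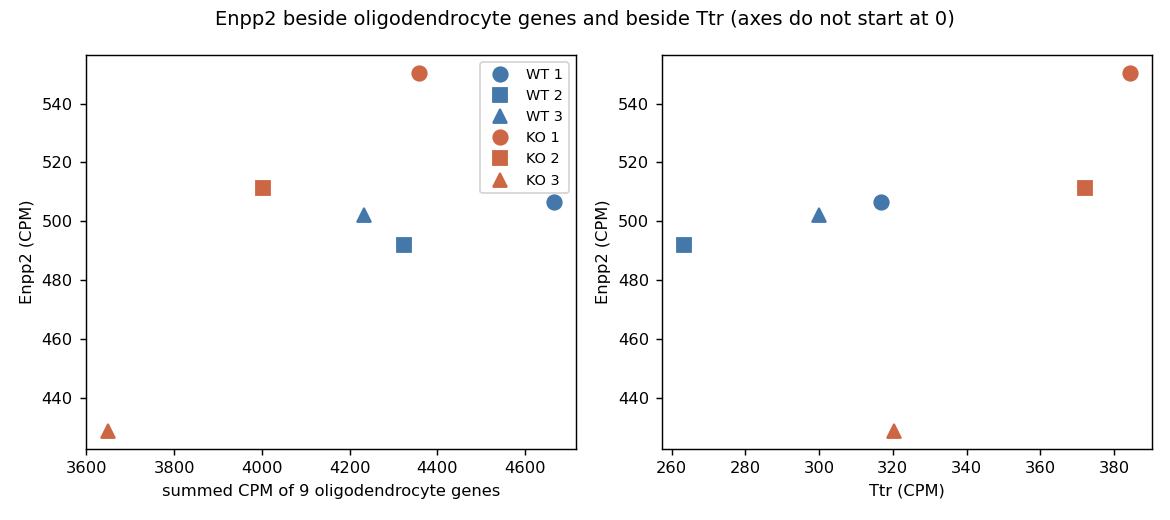
Enpp2 (CPM, y axis) against the summed abundance of 9 oligodendrocyte genes (left) and against Ttr (right) in each library, on axes that do not start at 0. KO library 3 has the lowest Enpp2 value, 429 CPM, and the lowest oligodendrocyte sum, 3649 CPM, while its Ttr value of 320.3 CPM is above that of each WT library. The highest sum is in WT library 1 and the highest Enpp2 value in KO library 1.

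A further 36 genes known from the choroid plexus were examined, and all passed the filter on low counts. None passed after adjustment in edgeR's test, and 5 had an unadjusted p-value under 0.05, all higher in KO, against 4.54% of all genes tested. They included Ezr, Igfbp2, Slc13a4 and 1500015O10Rik, of which Slc13a4 and 1500015O10Rik were named after their values were seen. By limma-voom 0 passed as well. By DESeq2 0 passed, in a fit that gave an adjusted p-value to only 4768 of all genes, and 0 without independent filtering. By edgeR with no filter on low counts 2 passed, Ezr and Igfbp2. The log2 fold change was positive for 25 and negative for 11, against 50.1% positive over all genes, and its median was 0.089. For 8 genes every KO library exceeded every WT library, against 7.46% of all genes. The sum over the list was 902 ± 19.9 CPM for WT and 893 ± 26.5 CPM for KO (SD over 3 libraries), a ratio of 0.991. Trpm3 and Slc12a2, both with negative log2 fold changes, were the largest terms of that sum.

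Transport genes numbered 12, of which 8 had a positive log2 fold change. They included the bicarbonate cotransporter gene Slc4a5 (0.22, SE 0.106) and the potassium channel gene Kcnj13 (0.12, SE 0.164). Among the 5 genes of junctions and the cell skeleton, 3 were positive. Ezr, a linker between membrane and actin, had 32.9 ± 1.03 CPM among WT and 38.9 ± 3.98 CPM among KO libraries, and its log2 fold change was 0.24 (SE 0.0734, edgeR adjusted p = 0.576). Cldn2, the pore-forming claudin of this epithelium, had 0.28 (SE 0.141). Among 9 genes of secreted and matrix proteins 8 were positive. Igfbp2, which binds insulin-like growth factors, had 17.0 ± 1.81 CPM among WT and 21.1 ± 2.45 CPM among KO libraries, and its log2 fold change was 0.31 (SE 0.0978, edgeR adjusted p = 0.576). Of 8 genes of enzymes, receptors and other functions, 4 were positive and 4 negative, Prr32 the most at -0.38 (SE 0.281). The 2 transcription factor genes were positive. Slc4a5, Kcnj13, Cldn2 and Prr32 were named after their values were seen. The 8 genes highest per length on the whole list were Slc12a2, Trpm3, Ezr, Igfbp2, Slc29a4, Htr2c, Ace and Slc31a1. Of these, 5 had a negative log2 fold change, Htr2c the most at -0.15 (SE 0.0712). Trpm3 and Htr2c are also made by neurons, and Slc12a2 by many cells of the brain.

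Genes of other cells that could come with the plexus were taken as a measured background. The 10 ependymal genes summed to 22.8, 18.02 and 22.3 CPM in WT and 23.8, 22.5 and 25.3 CPM in KO, a ratio of means of 1.13 with overlapping groups. The sum was lowest in WT library 2, which was also lowest for 4 of the choroid plexus members, and highest in KO library 3. Of the 9 ependymal genes tested 7 had a positive log2 fold change. The most abundant, the cilia regulator Foxj1, differed by 0.37 on the log2 scale, higher in KO (SE 0.118, edgeR adjusted p = 0.576), while Rsph1, the next, differed by 0.012 (SE 0.151). The 10 genes of meningeal and stromal fibroblasts summed to between 112 and 128 CPM in WT and between 107 and 135 CPM in KO, again highest in KO library 3. Their most abundant genes, the collagen genes Col1a2 and Col1a1, had log2 fold changes of -0.018 (SE 0.0700) and -0.16 (SE 0.138). Over the list 5 genes were positive and 5 negative. Islr, at 0.30 (unadjusted p = 0.0115, edgeR), had every KO library above every WT library, and Dcn and Lum, at -0.26 and -0.42 (unadjusted p = 0.00577 and 0.0174, edgeR), had every KO library below. These 3 genes were named after their values were seen. Plvap, a mark of the fenestrated capillaries under the plexus, had 5.72, 5.55 and 6.59 CPM in WT and 6.19, 4.99 and 6.70 CPM in KO. Its log2 fold change was 0.0026 (SE 0.131). Esm1, the other gene of that list, had 18, 12 and 11 counts in WT and 10, 6 and 8 in KO, and in CPM every KO library lay below every WT library. Its log2 fold change was -0.81 (SE 0.347, unadjusted p = 0.0378, edgeR adjusted p = 0.622). Blood genes, 5 in number, summed to between 109 and 149 CPM in WT and between 98.3 and 247 CPM in KO, a ratio of means of 1.41. The sum was highest in KO library 1, where 4 of the choroid plexus genes were highest. It was lowest in KO library 2, where 5 of them were highest. All 5 blood genes had a positive log2 fold change, against 50.1% of all genes. The globin genes Hbb-bs and Hba-a1 differed by 0.40 and 0.64 on the log2 scale, with overlapping groups. The sums over endothelial genes (250.2 to 255 CPM in WT, 237 to 265 in KO), mural cells (195 to 212 and 194 to 208), border macrophages (14.4 to 15.8 and 13.9 to 16.2) and neurons (4060 to 4214 and 3959 to 4160.5) overlapped between the groups. Of 4 pituitary genes, Pomc had between 13 and 40 counts, with a log2 fold change of 0.091 (SE 0.321), and Cga had at most 6. Prl was at 0 in every library and Gh had counts only in WT library 3. No gene of these lists, oligodendrocytes included, was called by edgeR after adjustment. Without adjustment, of the 61 genes tested on them, 4 were higher and 5 lower in KO at a p-value under 0.05, against 4.54% and 3.38% of all genes, and their part in the choroid plexus values was not tested.

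The genes whose pattern was most like that of the 10 members were sought over the 6 libraries, by Pearson's r between each gene's log2 CPM and the mean deviation of the members. With 6 points that share depth and genotype, r describes these libraries and no p is given. Among 17291 other genes with a mean of at least 1 CPM, the 10 highest were Lrrc73, Rtl5, Npm3, Ostc, Eif3b, Zfp790, Pcdhga12, Afg1l, Ppil1 and Fxr2, with r between 0.977 and 0.999. None of them is on the choroid plexus lists, and their log2 range over the libraries was between 0.16 and 0.62, against 0.31 to 0.86 for the members. Of the other choroid plexus genes the highest was Cldn2 at place 40 (r = 0.951), then Slc4a5 at place 51 (r = 0.944) and Cldn1 at place 86 (r = 0.934). The lowest were Spint2 (r = -0.794), Krt18 (r = -0.507) and Htr2c (r = -0.398). The median r was 0.464 over the 30 genes of that list with 1 CPM and 0.034 over all 17291 genes. An r of at least 0.7 was reached by 6 of the 30 genes of that list that had 1 CPM, or 20.0%, and by 9.35% of all 17291 genes. Among the members, r with the mean of the other 9 was 0.919 for Clic6, 0.901 for Ttr, 0.891 for Kl, 0.890 for Aqp1 and 0.852 for Kcne2. It was 0.708 for Otx2, 0.632 for Folr1, 0.529 for Sostdc1, 0.425 for Prlr and 0.387 for Enpp2.

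How far the values rested on single libraries was examined by leaving out each in turn. No member was called in any of the 6 edgeR fits, and between 1 and 5 members, all higher in KO, had an unadjusted p-value under 0.05. The lowest count, 1, came without KO library 2, where 4.20% of all genes did so in that direction, and the highest, 5, without KO library 3, where 4.42% did. The median log2 fold change of the members ranged from 0.15, without WT library 1, to 0.24, without KO library 3. That of Ttr ranged from 0.22, without WT library 2, to 0.37, without KO library 3, and that of Aqp1 from 0.26, without KO library 2, to 0.48, without KO library 3. Clic6 went from 0.19 to 0.099 without WT library 2, and Kcne2 from 0.35 to 0.22 without the same library. Otx2 went from 0.079 to 0.0024 without KO library 2 and to 0.16 without KO library 3. With KO library 3 left out, every KO library lay above every WT library for 8 of 10 members, against 12.3% of all genes in the same libraries. With any other library left out this held for 4 or 5 members, against 12.1% to 13.4% of all genes.

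**Figure D5:**
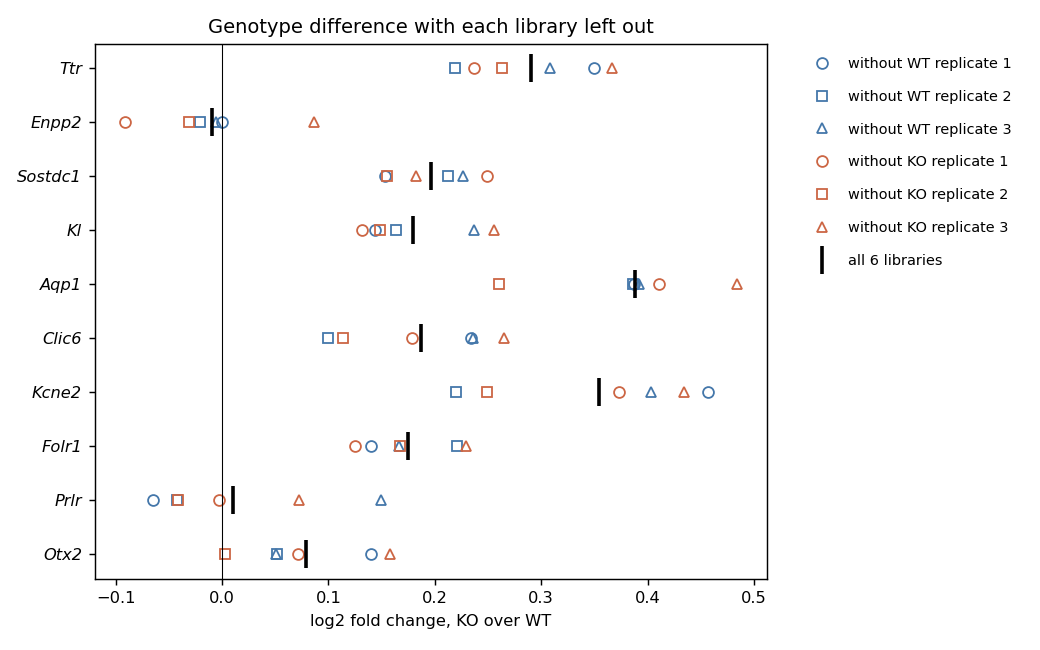
Log2 fold change of KO over WT (x axis) for each gene with all 6 libraries (black bar) and with each library left out (open symbols, blue for a WT and orange for a KO library). Values without KO library 3 are the highest for 7 of 10 genes, and those of Enpp2 and Prlr fall on both sides of 0.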

How the data were processed

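The authors deposited 1 table of whole-number read counts per library, not normalized. The submitters' processing notes name cutadapt 1.9.1 and STAR 2.7.0f, and the layout is that of STAR's gene counts. Genome build and annotation are not given in the sources used here; all 55450 gene IDs are those of GENCODE M21 (GRCm38). Per the labels, RNA was size-selected over 200 bp and sequenced with a TruSeq total RNA kit. The column for the strand opposite to the first read held 94.6% to 94.8% of stranded counts and was used. Reads in several genes or places are left out.

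Low genes were removed by filterByExpr of edgeR 4.0.16 under R 4.3.3, and libraries were scaled by TMM. Genotype was tested with its quasi-likelihood test, two-sided, Benjamini-Hochberg over 21237 genes. The SE is the log2 fold change over the square root of F. Log2 CPM used a prior count of 2. The test was checked on simulated counts. Alternatives used DESeq2 1.42.0, limma 3.58.1 and other settings. Members and lists were chosen with earlier results of these data known. Named genes were the members, Trmt1l, the 8 highest other choroid plexus genes per length, the 10 most like and the 2 most abundant genes of other cell lists; others were named after their values were seen. Some listed genes are not reported here singly, but enter the counts and sums. Same-numbered libraries did not deviate together.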

Additional observations from a re-analysis of the deposited data

How the results depend on the processing

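DESeq2 without independent filtering was chosen after seeing the data. The count of members past the threshold was 0 in edgeR and became 1 (Ttr) with no filter on low counts and 1 (Ttr) in the DESeq2 Wald test; the cause was not tested. Ttr then had log2 fold changes of 0.30 and 0.29, and its adjusted p-value ranged from 3.63e-07 to 0.861 over 15 alternatives. The count for the other choroid plexus genes became 2 (Ezr and Igfbp2) with no filter, where 298 of all genes passed in place of 2. The summed abundance, KO over WT, moved from 1.08 to 1.20 without Enpp2. Leaving out 1 library at a time, it ranged from 1.03 to 1.15, the median log2 fold change of the members from 0.15 to 0.24, Enpp2 from -0.091 to 0.087 and Prlr from -0.065 to 0.15, the last 2 changing sign; both counts stayed at 0. A replicate block gave 0 members, 0 other choroid plexus genes and a median of 0.18, and changed no call of a member. Same-numbered libraries gave no sign of pairing, as their deviations correlated across genes at 0.040, -0.031 and -0.058. DESeq2 size factors and total counts moved the median of all genes by -0.00042 and -0.010. Depth limits the low genes, since counting error is 11.8% for Kcne2 and 9.96% for Sostdc1.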
